A study of Mus musculus with 12 samples.

Results

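The 10 genes described here make peptide display on MHC class I molecules possible, and they were chosen by name: H2-K1, H2-D1, B2m, Tap1, Tap2, Tapbp, Psmb8, Psmb9, Psmb10 and Nlrc5. All 10 were listed in both deposited tables, out of 55401 gene IDs, and all 10 passed the filter on low values in every comparison. They were measured by 3' mRNA sequencing in CD45+/CD11b+/Ly6G- cells, a myeloid gate that leaves out neutrophils, sorted from mouse paws 4 h after an injection. The 4 groups had 3 libraries each. They were cKO mice (FABP5Flox/LysM-Cre) given 1% carrageenan, cKO mice given saline, Flox mice (FABP5Flox) given 1% carrageenan, and Flox mice given saline. Carrageenan is a seaweed polysaccharide that inflames the paw, and Fabp5 encodes a fatty acid-binding protein. Both genotypes carried the floxed Fabp5 allele. LysM-Cre is expressed from the Lyz2 locus in macrophages, monocytes and neutrophils, so the cut was not limited to 1 cell type. No group had LysM-Cre alone, so that effects of Cre, of the altered Lyz2 locus and of Fabp5 loss cannot be told apart. A library was a pool of cells from 3 or 4 adult mice, and the pools are named by their mouse numbers. Within a genotype the saline and carrageenan pools carry the same mouse numbers. The labels do not say whether the same mice gave both, and the main tests did not pair the pools. P-values measure the spread between such pools.

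MHC class I molecules show short peptides from a cell's own proteins to CD8 T cells and natural killer cells. Proteasomes cut proteins into peptides, and interferons and other inflammatory signals replace their constitutive catalytic subunits with the inducible ones of the immunoproteasome. The TAP transporter carries the peptides into the endoplasmic reticulum, where tapasin holds it beside empty class I molecules until a fitting peptide binds. NLRC5 is the transactivator of many of these genes. It has no DNA-binding domain of its own and acts through factors bound at an SXY module, a stretch of S, X and Y boxes upstream of class I genes. In macrophages and monocytes, interferon raises the whole set.

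The promoter letters of the light chain and of a heavy chain are shown because they hold the boxes through which NLRC5, NF-kappaB and interferon-regulated factors are known to act. They come from RefSeq on GRCm38.p6, which had a promoter row, 250 bases before to 50 after the start, for 8 of the 10 genes. Capitals mark matches to the interferon-stimulated response element in 1 exact spelling (GAAA, any 2 bases and GAAA again) and to the kappaB motif. They also mark TGACG of the X2 box and ATTGG of the Y box. All were searched on both strands. B2m alone of the 8 genes held that spelling of the response element. Looser forms of it were not searched, so lower case letters do not show that a promoter lacks one. The kappaB matches of H2-K1 overlap each other by all but 1 base.
B2m, chr2:122147538-122147648, plus strand: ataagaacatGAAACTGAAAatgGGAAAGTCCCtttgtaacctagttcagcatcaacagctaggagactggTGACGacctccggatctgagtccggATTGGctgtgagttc
H2-K1, chr17:34000349-34000468, minus strand: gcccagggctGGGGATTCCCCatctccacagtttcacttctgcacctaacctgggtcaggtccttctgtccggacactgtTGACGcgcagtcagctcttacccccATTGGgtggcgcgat

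The X2 and Y boxes of both heavy chains and of the light chain were set at the same distance, 25 bases from the first base of one to the first base of the other, with 20 bases between them. Of those 20 bases, 13 were identical in H2-K1 and H2-D1, 3 in B2m and H2-K1, and 2 in B2m and H2-D1. The boxes and the distance were thus shared by the light chain, on chromosome 2, while the letters in between were not. Capitals mark the same boxes in the next lines, the last of which shows the single TGACG in the interval between the Tap1 and Psmb9 starts.
B2m, chr2:122147609-122147638, plus strand: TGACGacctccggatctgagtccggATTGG
H2-K1, chr17:34000359-34000388, minus strand: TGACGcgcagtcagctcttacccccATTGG
H2-D1, chr17:35262993-35263022, plus strand: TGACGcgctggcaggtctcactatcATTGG
Tap1, chr17:34187460-34187489, plus strand: cagagacaggTGACGacagagggtcctgcc

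Among 32851 RefSeq promoters, TGACG was found in 20.8%, ATTGG in 37.4% and the kappaB motif in 8.46%. The interferon-stimulated response element in the spelling above was found in 3.44% and the STAT-binding element TTCNNNGAA in 8.30%. TGACG followed after 20 bases by ATTGG was found in 31 of them, or 0.0944%, and those included B2m, H2-K1, H2-D1 and the non-classical class I gene H2-M3. That spacing was looked for after it had been seen in the members, so it describes them and tests nothing. Psmb8, the beta5i subunit gene, held TTCNNNGAA 97 bases before its start. Tapbp held ATTGG at 2 places, and Psmb10 held none of the motifs in this window. The B2m stretch lies within the annotated span of Patl2 on the other strand, outside its exons. The stretches of H2-D1 and Tap1 lie in the annotated 5' UTR of 1 GENCODE transcript each, of H2-D1 and of Psmb9.

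The libraries held 111925 to 2987015 reads in genes. The Flox saline pool of mice 1-3 was the shallowest, and cKO libraries were 4.99 times as deep as Flox ones (ratio of geometric means), so that depth moved with genotype. Fabp5 had 6.30, 11.8 and 23.7 normalized counts in cKO carrageenan pools, against 45.6, 101 and 34.98 in Flox carrageenan pools. In saline it had 6.26, 4.17 and 11.5 in cKO pools, against 5.68, 35.98 and 23.2 in Flox pools. The groups did not overlap after carrageenan and overlapped in saline, where the lowest Flox value rested on 1 read. Inflammatory monocyte markers (6 genes) summed to 1977 to 7451 in cKO carrageenan and 416 to 881 in cKO saline, and to 4757 to 6608 in Flox carrageenan and 471 to 1253 in Flox saline. Resident macrophage markers (8 genes) went the other way, at 1811 to 4323 in cKO carrageenan and 7486 to 10489 in cKO saline, and at 1395 to 1754 in Flox carrageenan and 6312 to 7553 in Flox saline. Neutrophil markers (10 genes, Camp and Ngp at 0 in every library) summed to 124 to 622 in cKO carrageenan and 18.0 to 29.7 in cKO saline, and to 278 to 625 in Flox carrageenan and 22.7 to 69.5 in Flox saline. Those of T and NK cells (8 genes, Cd8a at 0 in every library) summed to at most 47.96 in a pool, and B cell markers (Cd79a at 0 in every library) to at most 1.82. Fibroblast markers (7 genes, each with reads) summed to 698 to 1047 in cKO carrageenan and 263 to 663 in cKO saline, and to 713 to 1240 in Flox carrageenan and 39.7 to 578 in Flox saline. Dendritic cell markers (8 genes) summed to 183 to 259 in cKO carrageenan and 112 to 145 in cKO saline, and to 223 to 289 in Flox carrageenan and 136 to 215 in Flox saline. These sums do not describe most of that list. Of its 5 genes tested, 2 had a positive log2 fold change in each genotype. The median was -0.68 in cKO pools and -0.11 in Flox pools, and none had an adjusted p under 0.05 in limma. Endothelial markers (5 genes) summed to 40.2 to 55.6 in Flox carrageenan and 0 to 16.5 in Flox saline. In cKO pools they overlapped, at 21.3 to 34.0 and 13.0 to 34.1. In saline, keratinocyte markers (5 genes) summed to 711 to 1503 in cKO pools and 272 to 602 in Flox pools. After carrageenan they overlapped, at 550 to 979 and 463 to 673. Myeloid markers of the gate (9 genes, Lyz2 among them) summed to 6280 to 8740 in cKO carrageenan and 9478 to 10597 in Flox carrageenan. In saline they overlapped, at 6951 to 7723 in cKO pools and 6493 to 9513 in Flox pools. The part of these shifts in the class I results was not tested. In sorted bulk RNA, fewer cells of a type and less RNA per cell cannot be told apart. The cKO carrageenan pool of mice 9-12 stood apart from its group in the resident macrophage sum, 1811, beside 4323 (mice 1-4) and 3902 (mice 5-8). Its monocyte sum, 7451, was the highest, but those of mice 1-4 (1977) and 5-8 (4913) also lay far from each other. Class I results that rest on the pool of mice 9-12 are given with and without it.

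Class I messages were abundant in these cells. The 10 genes took 0.955 to 1.05% of all reads in cKO carrageenan and 0.626 to 0.934% in cKO saline, and 0.925 to 1.02% in Flox carrageenan and 0.655 to 0.687% in Flox saline. The carrageenan shares lay above the saline shares in each genotype. B2m, H2-D1 and H2-K1 held 81.4 to 93.1% of those reads. By mean normalized count over the 12 libraries, a rank of read numbers in an assay that reads the 3' end of each transcript, B2m stood 17th of 55401, H2-D1 26th and H2-K1 60th. Tapbp was 269th, Psmb8 1154th, Tap1 1555th, Psmb10 1814th and Tap2 2135th. Nlrc5, at 3777th, and Psmb9, at 4101st, were the least read, with 2 to 110 and 0 to 110 reads a library.

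**Figure D1:**
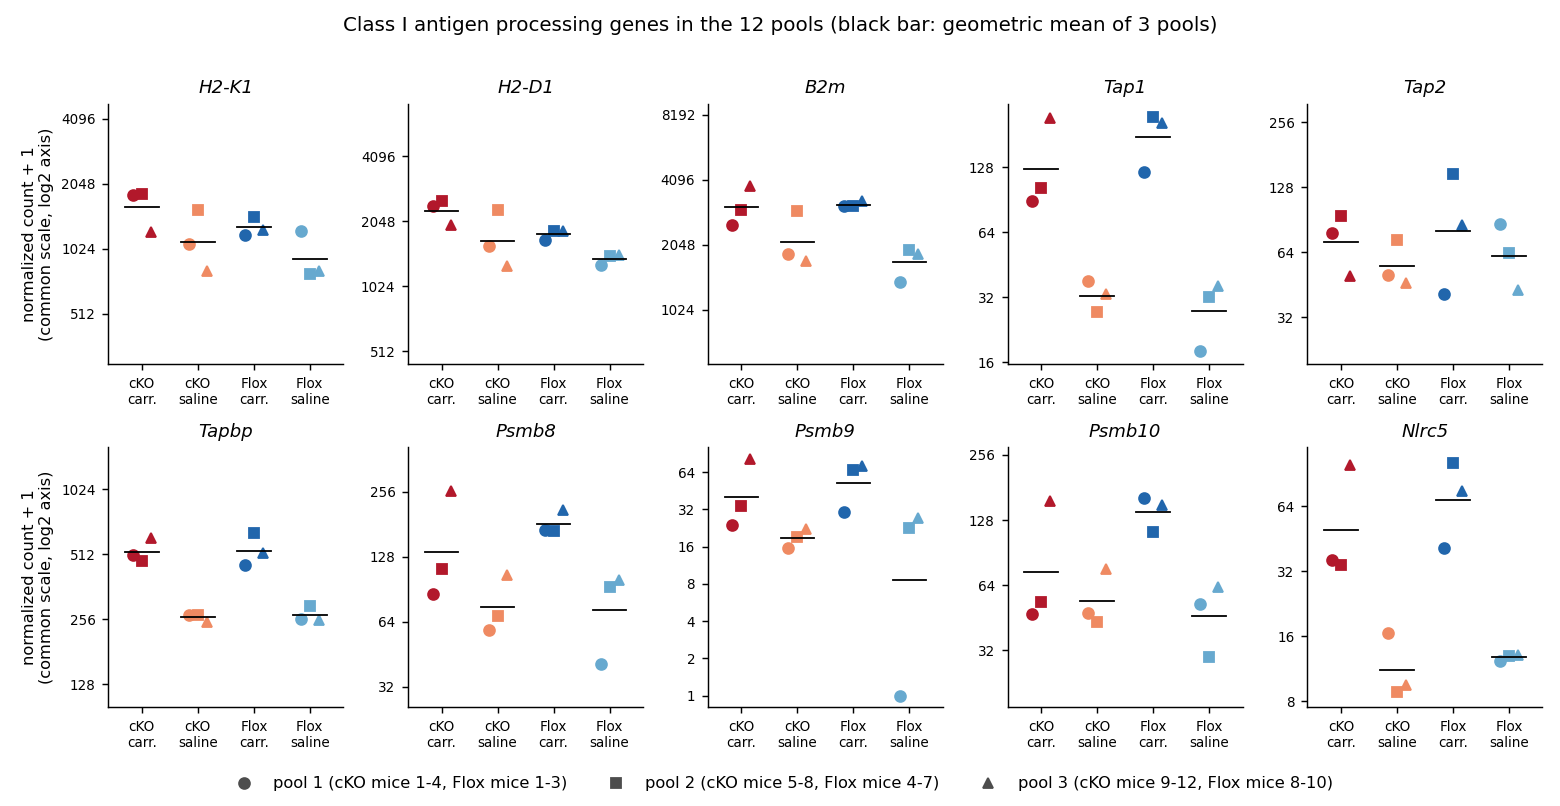
Normalized counts plus 1 of the 10 genes in each pool, on the common scale and a log2 axis whose range differs between genes. Marker shape gives the pool and colour the group, and a black bar is the geometric mean of 3 pools. For Tap1, Tapbp and Nlrc5 the carrageenan pools lie above the saline pools in both genotypes, while for Tap2 they overlap.

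Carrageenan was compared with saline within each genotype, to see whether inflamed paw cells carried more class I message. Values are normalized counts on a scale common to all 12 libraries, folds are on the log2(value + 1) scale, and a gene passed at an adjusted p under 0.05 in limma over 10240 genes. Tap1, Tapbp and Nlrc5 passed as higher in both genotypes. Psmb10, the beta2i subunit, also passed in Flox pools. So 3 of 10 class I genes passed in cKO pools, where 2.64% of all genes passed in either direction and 2.1% as higher. In Flox pools 4 of 10 passed, where 7.18% of all genes passed in either direction and 4.42% as higher. All 10 log2 fold changes were positive in both genotypes. Their median was 0.69 in cKO pools and 1.16 in Flox pools, beside medians over all genes tested of -0.07 and 0.10. Carrageenan and saline pools did not overlap for 4 members in cKO pools and 8 in Flox pools, each higher after carrageenan, as 12.6% and 13% of all genes tested were.

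Pools of 1 group differed in their class I level. In the order of mice 1-4, 5-8 and 9-12, the mean of the members' centred log2 values was 0.17, 0.34 and 0.89 in cKO carrageenan pools and -0.51, -0.39 and -0.52 in cKO saline pools. In the order of mice 1-3, 4-7 and 8-10 it was 0.35, 0.90 and 0.81 in Flox carrageenan pools and -1.08, -0.53 and -0.44 in Flox saline pools. With the members left out, the genes whose own profiles were closest to that mean, among 5700 genes with a mean of at least 20, were Cybb (root mean square log2 difference 0.16 over 12 libraries), Fgl2 (0.16), Pkm (0.21), Ets2 (0.22) and H2afy (0.23). Of the members, Tapbp (0.22) and B2m (0.30) were closest to it and Psmb9 (1.11) farthest.

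The heavy chains bind the peptide. H2-K1 (chr17:33996017-34000347, minus strand) had 1815, 1833 and 1226 normalized counts in cKO carrageenan pools, against 1078, 1544 and 810.3 in cKO saline pools. It had 1185, 1429.5 and 1255 in Flox carrageenan pools, against 1243, 784 and 804 in Flox saline pools. The groups overlapped in both genotypes, and the log2 fold changes of 0.53 ± 0.29 (SE) in cKO and 0.48 ± 0.29 in Flox did not pass (adjusted p = 0.612 and 0.341).

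H2-D1 (chr17:35262730-35267499, plus strand) is the other classical heavy chain on the list. It had 2399, 2529 and 1971 normalized counts in cKO carrageenan pools, against 1581, 2310.5 and 1265 in cKO saline pools. It had 1678, 1836 and 1838 in Flox carrageenan pools, against 1283, 1418 and 1426 in Flox saline pools. Flox pools did not overlap and cKO pools did, and neither change passed (0.46 ± 0.26, adjusted p = 0.644, in cKO, and 0.38 ± 0.26, adjusted p = 0.403, in Flox). Of the 50-base words in the last 500 bases of H2-D1, 9.53% also occurred in transcripts of other genes, against 0.443% for H2-K1 and none for the other 8 members, so a small part of H2-D1 reads could be placed elsewhere.

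B2m (chr2:122147686-122153083, plus strand) encodes the light chain, without which heavy chains do not reach the surface. It had 2515, 2964 and 3812 normalized counts in cKO carrageenan pools, against 1849.9, 2917 and 1725 in cKO saline pools. It had 3079.6, 3082 and 3241 in Flox carrageenan pools, against 1379, 1936 and 1846 in Flox saline pools. The Flox pools were separate and differed by a log2 fold change of 0.88 ± 0.28 (adjusted p = 0.0757), and the cKO pools overlapped, with 0.54 ± 0.28 (adjusted p = 0.579). The ratio of B2m to the heavy chains' summed reads was 0.823 ± 0.323 in cKO carrageenan and 0.761 ± 0.068 in cKO saline, and 1.02 ± 0.07 in Flox carrageenan and 0.751 ± 0.179 in Flox saline (SD, n = 3 each). The Flox groups were separate, with every carrageenan pool above every saline pool, and the cKO groups overlapped. Averaged over genotypes, the log2 difference of 0.26 did not pass (exact two-sided permutation test within genotype, p = 0.25, adjusted p = 0.312 over 5 ratios).

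Tap1 (chr17:34187553-34197225, plus strand), a subunit of the peptide transporter, had 88.8, 102 and 215 normalized counts in cKO carrageenan pools, against 37.2, 26.3 and 32.1 in cKO saline pools. It had 121, 219 and 204 in Flox carrageenan pools, against 17.03, 31.2 and 35.3 in Flox saline pools. In each genotype every carrageenan pool was above every saline pool. Tap1 was 3.86 times as high after carrageenan in cKO pools (log2 fold change 1.95 ± 0.39, adjusted p = 0.0156) and 6.39 times in Flox pools (2.68 ± 0.39, adjusted p = 0.00147). The lowest Flox saline value rested on 3 reads, and without that pool the Flox change was 2.35 (adjusted p = 0.00191).

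Tap2 (chr17:34203527-34216321, plus strand) encodes the other subunit of the transporter. It had 77.3, 92.8 and 49.0 normalized counts in cKO carrageenan pools, against 49.4, 71.7 and 45.4 in cKO saline pools. It had 40.2, 146 and 84.7 in Flox carrageenan pools, against 85.1, 62.4 and 41.9 in Flox saline pools. Groups overlapped in both genotypes, and the changes of 0.37 ± 0.44 in cKO (95% interval -0.56 to 1.30) and 0.38 ± 0.44 in Flox (-0.55 to 1.31) did not pass (adjusted p = 0.965 and 0.628).

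Tapbp (chr17:33915899-33929292, plus strand), the tapasin gene, had the least spread among the members that passed. It had 504, 476 and 605 normalized counts in cKO carrageenan pools, against 267, 268 and 249 in cKO saline pools. It had 456, 640.0 and 515 in Flox carrageenan pools, against 255, 295 and 253 in Flox saline pools. Each genotype's pools were separate, and Tapbp was 2.01 times as high after carrageenan in cKO pools (log2 fold change 1.01 ± 0.21, adjusted p = 0.0204) and 1.99 times in Flox pools (0.99 ± 0.21, adjusted p = 0.0120). Tapbp shares 149 annotated exon bases with Zbtb22 on the same strand, a gene with 291 reads in all beside 7013 for Tapbp.

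Nlrc5 (chr8:94434356-94527272, plus strand), the transactivator, was among the least read members and had the largest fold in cKO pools. It had 34.98, 33.3 and 97.9 normalized counts in cKO carrageenan pools, against 15.7, 7.82 and 8.47 in cKO saline pools. It had 40.2, 101 and 74.6 in Flox carrageenan pools, against 11.4, 12.0 and 12.1 in Flox saline pools, which together held 18 reads. The groups were separate in both genotypes. Nlrc5 was 4.45 times as high after carrageenan in cKO pools (log2 fold change 2.15 ± 0.51, adjusted p = 0.0355) and 5.32 times in Flox pools (2.41 ± 0.51, adjusted p = 0.0108).

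The immunoproteasome subunits had higher point estimates in Flox pools than in cKO pools, though no difference between the genotypes' responses passed. Psmb8 (chr17:34197721-34201454, plus strand), the beta5i subunit, had 84.6, 111 and 257 normalized counts in cKO carrageenan pools, against 57.8, 66.7 and 105 in cKO saline pools. It had 169, 167 and 209 in Flox carrageenan pools, against 39.7, 91.1 and 99.3 in Flox saline pools. Flox pools were separate and cKO pools overlapped, and neither change passed (0.85 ± 0.42, adjusted p = 0.516, in cKO, and 1.33 ± 0.42, adjusted p = 0.0705, in Flox).

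Psmb9 (chr17:34181987-34187764, minus strand), the beta1i subunit, had 23.1, 33.3 and 80.5 normalized counts in cKO carrageenan pools, against 14.6, 18.2 and 21.2 in cKO saline pools. It had 29.5, 66.1 and 70.7 in Flox carrageenan pools, against 0, 21.6 and 26.5 in Flox saline pools. Pools were separate in both genotypes, though by little in cKO, and the changes of 1.11 ± 0.96 in cKO and 2.63 ± 0.96 in Flox did not pass (adjusted p = 0.901 and 0.115). Without the Flox saline pool that had no Psmb9 read, whose 3-read floor stood at 17.03 normalized counts, the Flox change was 1.07 (adjusted p = 0.220).

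Psmb10 (chr8:105935735-105938444, minus strand), the beta2i subunit, had 46.2, 52.1 and 156 normalized counts in cKO carrageenan pools, against 46.6, 42.0 and 75.0 in cKO saline pools. It had 161, 111 and 149 in Flox carrageenan pools, against 51.1, 28.8 and 61.8 in Flox saline pools. The Flox pools were separate, and Psmb10 was 3.04 times as high after carrageenan (log2 fold change 1.60 ± 0.44, adjusted p = 0.0404). In cKO pools the groups overlapped, since the pools of mice 1-4 and 5-8 lay within the saline range, and the change was 0.45 ± 0.44 (adjusted p = 0.942). The Flox call was lost in 9 of 21 alternative analyses, where the adjusted p reached 0.118.

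**Figure D2:**
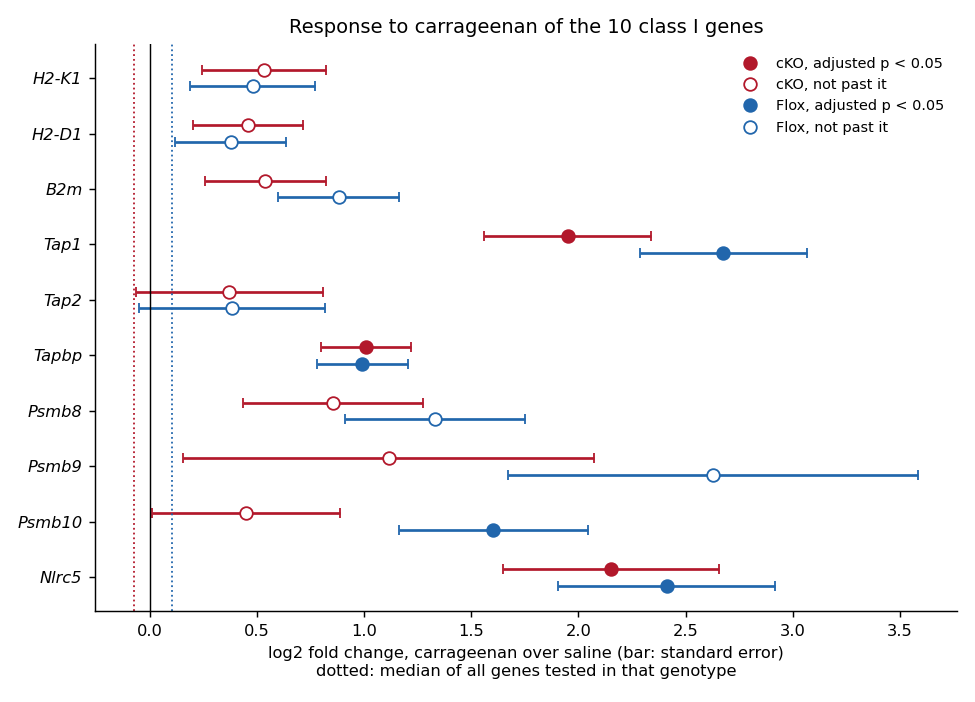
Log2 fold change of carrageenan over saline with its standard error, for cKO (red, upper) and Flox (blue, lower) pools, in 3 pools a group. Filled points passed an adjusted p of 0.05, and dotted lines are the medians of all genes tested. All 10 genes lie to the right of 0, Tap1 and Nlrc5 farthest among those that passed in both genotypes.

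The calls in cKO pools rested on few libraries. Without the cKO carrageenan pool of mice 9-12, log2 fold changes in cKO were 1.57 for Tap1 (adjusted p = 0.0871), 0.92 for Tapbp (adjusted p = 0.0738) and 1.67 for Nlrc5 (adjusted p = 0.199). The cKO pools with the same mouse numbers tended to deviate together, though not in every case more than pools of different numbers. With these numbers as a block Tap1 (adjusted p = 0.0143) and Tapbp (adjusted p = 0.0272) passed and Nlrc5 did not (adjusted p = 0.0630). Leaving out any cKO saline pool likewise left no member past the threshold in cKO, and without the cKO carrageenan pool of mice 5-8 Tap1 was the one member that passed. In Flox, without the Flox carrageenan pool of mice 4-7, Tap1 passed (2.56, adjusted p = 0.0146), while Tapbp (0.90, adjusted p = 0.0506) and Nlrc5 (2.17, adjusted p = 0.0533) missed the threshold.

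Each inducible subunit takes the place of a constitutive one, so the ratio of their reads within a library was compared between treatments, free of any scaling. Psmb8 to Psmb5 was 1.08, 1.38 and 2.72 in cKO carrageenan pools, against 0.834, 0.753 and 1.41 in cKO saline pools. It was 2.42, 1.60 and 1.91 in Flox carrageenan pools, against 1.40, 1.00 and 1.15 in Flox saline pools. It was higher after carrageenan by a log2 difference of 0.73 averaged over genotypes (exact two-sided permutation test within genotype, p = 0.02, adjusted p = 0.1 over the 5 ratios).

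Psmb10 to Psmb7 was 0.874, 0.977 and 2.02 in cKO carrageenan pools, against 1.44, 0.782 and 1.41 in cKO saline pools. It was 2.50, 1.45 and 2.11 in Flox carrageenan pools, against 0.818, 0.375 and 0.903 in Flox saline pools. The Flox groups were separate and the cKO groups overlapped (log2 difference 0.82, exact p = 0.075, adjusted p = 0.125). Psmb9 to Psmb6, without the library that had no Psmb9 read, gave a log2 difference of 0.93 (exact p = 0.065, adjusted p = 0.125), and H2-K1 to H2-D1 one of 0.09 (exact p = 0.54, adjusted p = 0.54). The smallest p that these arrangements allow is 0.005, and no ratio passed the adjusted threshold. With cKO labels exchanged only within pools of the same mouse numbers, an alternative added after seeing the data, Psmb8 to Psmb5, higher after carrageenan in 3 of 3 cKO pairs, reached the smallest p those arrangements allow (exact p = 0.0125, adjusted p = 0.0625). Without the cKO carrageenan pool of mice 9-12 the log2 differences were 0.54 (Psmb8 to Psmb5), 0.63 (Psmb10 to Psmb7) and 0.79 (Psmb9 to Psmb6). The constitutive subunits themselves had log2 fold changes of 0.13 (Psmb5), 0.13 (Psmb6) and 0.40 (Psmb7) in cKO pools and of 0.60, 0.33 and 0.03 in Flox pools, and none passed.

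**Figure D3:**
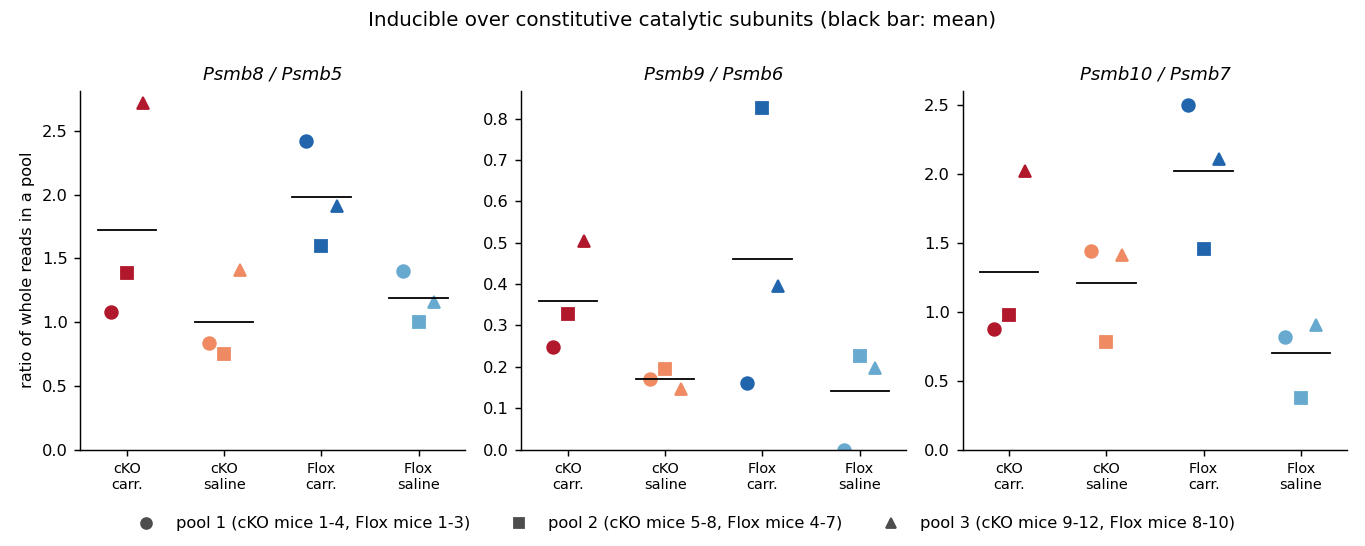
Ratio of whole reads of each inducible catalytic subunit to the constitutive one it replaces, per pool, with the mean of 3 pools as a black bar and axes from 0. In cKO carrageenan the pool of mice 9-12 (triangle) has the highest ratio in all 3 panels, 2.72, 0.505 and 2.02, and the other pools of that group lie below it.

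Next, cKO was set against Flox under each treatment, on the deposited scale, to see whether class I messages differed between the genotypes. After carrageenan, 0 of 10 class I genes passed, as 0% of 9151 genes did in limma (897 genes, or 9.8%, at an unadjusted p under 0.05, none of them a member). edgeR called 0 genes as well and DESeq2 10, none of them a member. DESeq2 gave no adjusted p to 7096 of the 9151 genes, and those could not be called. H2-D1 was the single member whose groups did not overlap, higher in cKO pools, as 8.87% of all genes were. For the chains of the class I molecule the log2 fold changes were 0.37 ± 0.22 (95% interval -0.12 to 0.85) for H2-D1, 0.32 ± 0.24 (-0.22 to 0.86) for H2-K1 and -0.03 ± 0.24 (-0.56 to 0.50) for B2m. The median was -0.26 over the members, beside 0.09 over all genes tested. The proteasome subunits, Tap1 and Nlrc5 had negative changes that did not pass. Psmb10 had the lowest, at -0.92 ± 0.43 (95% interval -1.87 to 0.02, unadjusted p = 0.0549, adjusted p = 0.505). Next came Tap1 at -0.48 ± 0.37 (-1.29 to 0.33), Nlrc5 at -0.45 ± 0.47 (-1.49 to 0.59), Psmb8 at -0.42 ± 0.37 (-1.25 to 0.41) and Psmb9 at -0.37 ± 0.49 (-1.46 to 0.72). Tapbp differed least, at -0.01 ± 0.22 (-0.51 to 0.49), and Tap2 was at -0.16 ± 0.44 (-1.15 to 0.83).

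The cKO carrageenan pool of mice 9-12 changed the size of several of those differences, though not of all. It was highest of its group in B2m, Tap1, Tapbp, Nlrc5 and the 3 proteasome subunits, and lowest in H2-K1, H2-D1 and Tap2. Without it 420 of 8908 genes tested passed between the genotypes in limma, 127 as higher and 293 as lower in cKO pools. Psmb10 was then the 1 of 10 members past the threshold, lower in cKO pools at a log2 fold change of -1.47 (adjusted p = 0.0177). Psmb8 (-0.88, adjusted p = 0.0651), H2-D1 (0.48, adjusted p = 0.0888) and H2-K1 (0.51, adjusted p = 0.0914) came next and did not pass. This pool had 508407 reads in genes, fewer than the 2271231 and 2627107 of the other cKO carrageenan pools, and the marker sums given above, whose part in the difference was not tested. In the authors' deposited table, which compared LysMCre with Flox, no member had an adjusted p under 0.05 after carrageenan. The lowest was 0.511, for H2-D1, and Psmb10 stood at -0.61 ± 0.37 (log2 fold change ± SE, adjusted p = 0.552) in that deposited table.

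In saline, 0 of 10 members passed and the groups overlapped for all 10, while 15.6% of all genes tested had separate groups, in a comparison where 0% of 9371 genes passed in limma (508, or 5.42%, at an unadjusted p under 0.05), edgeR called 0 and DESeq2 23, none of them a member. DESeq2 gave no adjusted p to 2544 of the 9371 genes, and those could not be called. The median log2 fold change was 0.26 over the members, beside 0.25 over all genes tested. Members' log2 fold changes ran from -0.17 ± 0.57 for Nlrc5 to 0.34 ± 0.34 for B2m, with Psmb9 at 1.15 ± 1.20 because of the Flox pool without a read. Without that pool Psmb9 was at -0.40 (adjusted p = 0.676). In the authors' deposited table for saline, members' adjusted p-values ran from 0.846 to 0.994, with none given for Nlrc5.

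**Figure D4:**
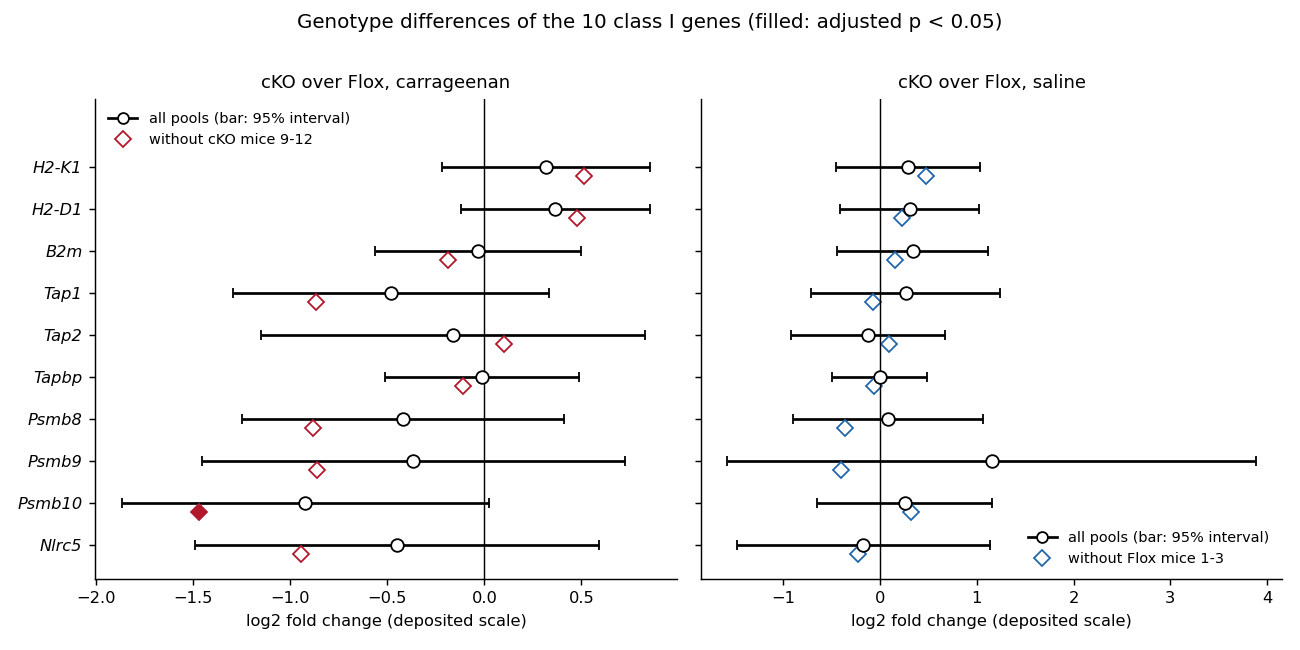
Log2 fold change of cKO over Flox after carrageenan (left) and in saline (right) on the deposited scale, with 95% intervals from 3 pools a group. Diamonds leave out the cKO pool of mice 9-12 (red) or the Flox pool of mice 1-3 (blue), and a filled symbol passed an adjusted p of 0.05. Psmb10, at -1.47, is the one filled symbol.

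Whether the response to carrageenan itself differed between genotypes was tested as an interaction on the deposited scale, and no member passed, nor did any of 10243 genes in limma (0%, with 244 genes, or 2.38%, at an unadjusted p under 0.05, none of them a member), in edgeR or in DESeq2. Psmb10 had the lowest unadjusted p, at a log2 difference of -1.18 ± 0.62 (cKO minus Flox, 95% interval -2.51 to 0.15, unadjusted p = 0.0778, adjusted p = 0.967). The median log2 difference was -0.32 over the members, beside -0.15 over all genes tested. Tap1 stood at -0.75 ± 0.56 (-1.94 to 0.44) and B2m at -0.37 ± 0.41 (-1.25 to 0.51). Tapbp, at -0.01 ± 0.30 (-0.66 to 0.64), H2-K1, at 0.03 ± 0.41 (-0.85 to 0.90), and H2-D1, at 0.06 ± 0.37 (-0.74 to 0.86), were nearest to 0. That Psmb10 passed in Flox pools and not in cKO pools is thus no shown difference between them.

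Tap1, Psmb8 and Tap2 follow each other on chromosome 17, beside Psmb9. Psmb9 and Tap1 are read in opposite directions from RefSeq starts with 225 bases between them, and their GENCODE exons overlap by 212 bases at the 5' ends. Psmb8 lies 496 bases beyond Tap1, and Tap2 2073 bases beyond Psmb8. Tap1 passed in both genotypes, while Psmb8, on the same strand, had log2 fold changes of 0.85 beside 1.95 for Tap1 in cKO pools and 1.33 beside 2.68 in Flox pools. Tap2, the last in the row, stood at 0.37 and 0.38. The differences between these genes were not tested. Whether reads were counted by strand is not given in the sources used here, but the overlap lies at the far end of both genes from the 3' ends that the libraries read. Tapbp lies 252695 bases from Psmb9, beyond H2-K1, and Psmb10 and Nlrc5 are 11408463 bases apart on chromosome 8.

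**Figure D5:**
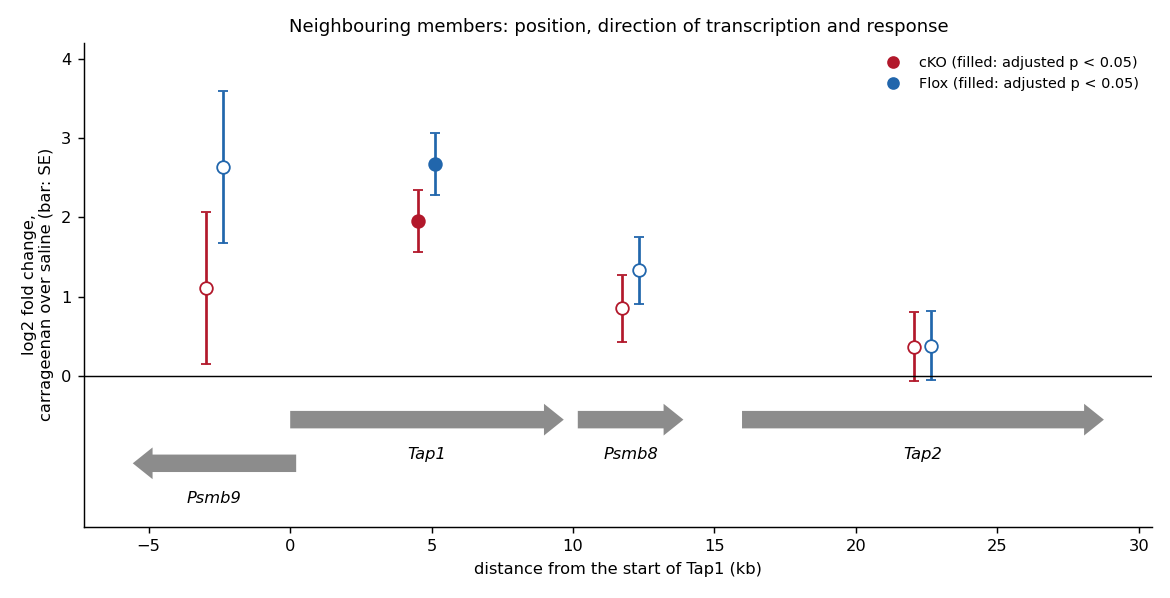
Positions and directions of Psmb9, Tap1, Psmb8 and Tap2 in kb from the start of Tap1 (grey arrows), with the log2 fold change of carrageenan over saline and its standard error above each gene. Red points are cKO pools and blue points Flox pools, and Tap1 alone has filled points (adjusted p under 0.05).

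Around the members, the counts of other pathway genes stand beside 2.64% of all genes that passed in cKO pools and 7.18% in Flox pools. Of 9 tested genes for chaperones, transport and trimming in the endoplasmic reticulum, none passed in either genotype, with medians of 0.06 in cKO pools and 0.33 in Flox pools. Among them Hspa5, a chaperone, stood at 0.47 in cKO and 0.66 in Flox, Calr (calreticulin, of the loading complex) at 0.06 and 0.50, and Erap1, which trims peptides, at 0.30 and -0.69. Of 12 other subunits of the proteasome core none passed, with medians of 0.12 and 0.47. The PA28 activator that caps proteasomes is made of Psme1 and Psme2. Psme1 had 159, 165 and 278 normalized counts in cKO carrageenan pools and 108, 123 and 128 in cKO saline pools, and 212, 341 and 273 in Flox carrageenan pools and 125, 93.5 and 150.0 in Flox saline pools. It passed in Flox (1.16 ± 0.28, adjusted p = 0.0233) and not in cKO (0.69 ± 0.28, adjusted p = 0.327). Psme2 stood at 1.22 ± 0.47 in cKO and 0.68 ± 0.47 in Flox and did not pass.

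Class I heavy chain genes outside the members changed in both directions. Of 19 listed, 12 were tested, H2-Q1 and H2-M10.1 had no read in any library, and 1 passed as lower in cKO pools and 1 as higher and 2 as lower in Flox pools, beside 2.64% and 7.18% of all genes in either direction. H2-Q7, a non-classical chain, passed as higher in Flox (1.42 ± 0.37, adjusted p = 0.0337) and stood at 0.93 ± 0.37 in cKO (adjusted p = 0.313). Fcgrt, the heavy chain of the neonatal Fc receptor, which pairs with B2m but binds antibody rather than peptide, fell in both. It had 81.8, 80.0 and 52.1 normalized counts in cKO carrageenan pools, against 263, 188 and 295 in cKO saline pools (-1.79 ± 0.43, adjusted p = 0.0375). It had 50.9, 20.9 and 63.0 in Flox carrageenan pools, against 96.5, 216 and 260.3 in Flox saline pools (-2.08 ± 0.43, adjusted p = 0.0094). Mr1, which presents vitamin metabolites, fell in Flox pools (-3.30 ± 0.71, adjusted p = 0.0121), where it had 0, 0 and 2.33 normalized counts after carrageenan, 3 reads in all, and 22.7, 14.4 and 7.72 in saline, and stood at -0.76 in cKO. At so few reads, with 3-read floors of 8.04 and 10.4 in the Flox carrageenan pools without a read, the size of that fold is not fixed by the data.

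Among regulators of class I transcription, Irf9 (1.45, adjusted p = 0.0347, in cKO, and 1.31, adjusted p = 0.0308, in Flox) and Stat2 (2.23, adjusted p = 0.0153, and 1.75, adjusted p = 0.0276), which act in one complex below the type I interferon receptor, passed in both. Irf1, a factor of the immunoproteasome genes, stood at 0.51 in cKO (adjusted p = 0.872) and passed in Flox (1.55, adjusted p = 0.0353), and Nfkb1 passed in cKO (1.34, adjusted p = 0.0359) and stood at 0.66 in Flox (adjusted p = 0.228). None of these passed in the interaction, so they are not shown to differ between genotypes. Of 8 tested interferon, receptor and signalling genes, 2 passed as higher in each genotype, beside 2.1% and 4.42% of all genes. Jak2, a kinase of the interferon-gamma receptor, passed in both genotypes (1.89 and 1.80, adjusted p = 0.0018 and 0.00164). Socs1, an inhibitor of that signal, passed in cKO (2.28, adjusted p = 0.0443, beside 1.80, adjusted p = 0.0675, in Flox), and Ifngr2, a chain of the receptor, in Flox (1.05, adjusted p = 0.0175, beside 0.58, adjusted p = 0.351, in cKO). The interferon genes Ifnb1, Ifna4 and Ifng were read at most 13 times in a library and were not tested.

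Cross-presentation, in which phagocytes load peptides from swallowed material on class I molecules, was covered by 10 genes, of which 8 were tested. None passed in cKO pools and 3 as higher in Flox pools, where 2.1% and 4.42% of all genes tested passed as higher. Cybb, the NADPH oxidase subunit whose profile was closest to that of the members, stood at 0.90 ± 0.23 in cKO (adjusted p = 0.0582) and 1.18 ± 0.23 in Flox (adjusted p = 0.00814). Rab27a, which guides that oxidase to phagosomes, stood at 1.25 in cKO and 3.86 in Flox (adjusted p = 0.00728), and Rac2, a part of the active oxidase, at 0.47 and 2.02 (adjusted p = 0.0223). Of the calls in cKO pools among these further lists, Jak2 passed without the cKO carrageenan pool of mice 9-12 (1.92, adjusted p = 0.00825). Fcgrt (-1.57, adjusted p = 0.183), Irf9 (1.54, adjusted p = 0.0949), Stat2 (2.11, adjusted p = 0.0830), Nfkb1 (1.502, adjusted p = 0.0668) and Socs1 (1.74, adjusted p = 0.257) did not. With the mouse numbers as a block, Fcgrt (adjusted p = 0.0618) and Socs1 (adjusted p = 0.0544) missed the threshold. Without the Flox saline pool of mice 1-3, Irf1 missed it in Flox pools (1.20, adjusted p = 0.0946), and Rac2 stood at 1.24 (adjusted p = 0.0228). These values were looked at after the calls had been seen.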

How the data were processed

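Per the labels, the RNA of sorted paw cells went into 3' libraries with molecular identifiers (Lexogen LUTHOR), read in pairs on a NovaSeq. The submitters' processing notes name cutadapt, STAR and GRCm38. Neither the read counter nor its gene models are given in the sources used here. Deposited values are a signal in normalized counts, scaled by the authors separately for saline and carrageenan. Further tables hold, per the file headers, the authors' log2 fold changes of LysMCre over Flox with their standard errors, a test score and p-values. Every value was a whole multiple of 1 read in its library (100% of values, tolerance 0.001), so whole reads were recovered.

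To compare treatments, all 12 libraries were rescaled by the median ratio of 6501 genes. Genes with at least 5 in at least 3 libraries were tested with limma 3.58.1 (R 4.3.3) on log2(value + 1) with a mean trend and Benjamini-Hochberg adjustment over all of them, and the script was tested on simulated data. Alternatives were pseudocounts of 0.5 and 5, no filter or one of 20, edgeR 4.0.16, DESeq2 1.42.0, the deposited and TMM scales, a replicate block, leaving out each library and, added after seeing the data, a block for the ratios. Pools with the same mouse numbers were compared by the correlation of their deviations from group means. It was 0.20, 0.33 and 0.43 in cKO, where the numbers were taken as pairs, and -0.02 to 0.11 in Flox. Genes were placed with GENCODE vM21. Sequences are from RefSeq. The named genes were the members, the constitutive subunits, up to 4 genes of each list with the smallest p in a comparison, and the 5 closest profiles. The members and lists were chosen with earlier results of these data known. Counting intervals and floors (3 reads) cover counting error only. Some genes of the lists are not reported here.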

Additional observations from a re-analysis of the deposited data

How the results depend on the processing

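In cKO pools 270 genes passed between carrageenan and saline, and 139 without the filter, 733 in edgeR, 915 in DESeq2 and 84 to 507 with 1 library left out, with 0 to 3 class I genes. In Flox pools 735 passed, 418 without the filter and 334 to 1073 with 1 library left out, with 1 to 6 class I genes. With a replicate block by mouse number within each genotype, 249 genes and 2 members passed in cKO pools and 733 genes and 6 members in Flox pools. There Psmb8 (adjusted p = 0.0272) and Psmb9 (adjusted p = 0.0495) came in. In the interaction 0 genes passed with that block. Between genotypes the block was the order of the pools, which joins different mice, and 0 passed. On the deposited scale 163 genes were higher and 72 lower in cKO pools (215 and 55 on the common scale), and 376 and 342 in Flox pools (453 and 282). Between genotypes DESeq2 called 10 genes after carrageenan and 23 in saline, and leaving out 1 library gave 0 to 420 after carrageenan, with 0 to 1 members.

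Of 21 alternatives, Tap1 passed in Flox pools in all, Tapbp and Nlrc5 in all but the one without the Flox carrageenan pool of mice 4-7, and Psmb10 in 12. In cKO pools the call was lost in 4 for Tap1, 5 for Tapbp and 9 for Nlrc5. B2m passed in Flox pools in DESeq2 (adjusted p = 0.0176). No value that changed sign had passed. Between genotypes in saline, Psmb8 was at -0.12 in edgeR and -0.084 in DESeq2, and Psmb9 at -0.17 and -0.10, and the interaction of Tapbp was 0.013 in DESeq2. With 1 library left out, log2 fold changes of carrageenan over saline ran from -0.092 to 0.76 for Psmb10 in cKO and from -0.012 to 0.88 for Tap2 in Flox. Those of cKO over Flox after carrageenan ran from -0.19 to 0.10 for B2m, -0.64 to 0.27 for Tap2, -0.12 to 0.12 for Tapbp and -0.86 to 0.0055 for Psmb9. In saline they ran from -0.068 to 0.49 for Tap1, -0.36 to 0.089 for Tap2, -0.063 to 0.078 for Tapbp, -0.36 to 0.34 for Psmb8, -0.40 to 2.01 for Psmb9 and -0.050 to 0.50 for Psmb10. In the interaction they ran from -0.19 to 0.27 for H2-K1, -0.14 to 0.30 for H2-D1, -0.52 to 0.40 for Tap2, -0.12 to 0.12 for Tapbp, -2.38 to 0.036 for Psmb9 and -0.77 to 0.0084 for Nlrc5. The cause was not tested. In Flox saline pool 1-3, 1 read was worth 5.68 normalized counts, which limits Psmb9, Nlrc5 and Tap1.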
